A study of Mus musculus with 39 samples.

Results

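The liver's endothelial cells were followed through 8 genes that mark them: Kdr, Stab2, Stab1, Lyve1, Pecam1, Tek, Cdh5 and Clec4g. Each gene was read from the microarray probe annotated with its symbol alone, and where a gene had more than 1 such probe, from the one with the highest mean signal over all arrays. All 8 genes had such a probe, with a value on every array, out of 11591 genes that could be tested in this way. Only Stab2 had another such probe. On GRCm38.p6 the other 6 genes lie at chr14:31139017-31168651 (Stab1), chr7:110850607-110862953 (Lyve1), chr11:106654213-106715281 (Pecam1), chr4:94739086-94874976 (Tek), chr8:104101613-104144504 (Cdh5) and chr8:3707066-3720695 (Clec4g).

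The samples were whole livers of adult male mice on the 129SV background, either wild type or lacking the nuclear receptor PPARα, dosed by gavage on 7 consecutive days. PPARα-null mice were given 1 or 3 mg/kg perfluorooctanoic acid (PFOA) as its ammonium salt, or deionised water as its vehicle, and other PPARα-null mice were given 50 mg/kg Wy14,643, or its vehicle of 0.5% methylcellulose. Wild-type mice received the same 5 treatments. PFOA is a fluorinated surfactant, and Wy14,643 is a synthetic PPARα agonist. Each group held 4 arrays of 1 animal each, except wild-type mice given methylcellulose, which held 3, so that 39 arrays in 10 groups were analysed. The null mice lack PPARα in every cell, so neither genotype separates an effect within endothelial cells from an effect of the hepatocytes around them.

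Liver sinusoids are lined by specialised endothelial cells with open fenestrae and no continuous basement membrane. Among the members, Kdr encodes the main signalling receptor for VEGF-A, and Tek encodes Tie2, the angiopoietin receptor. Stab2, Stab1, Lyve1 and Clec4g encode surface receptors: the stabilins are scavenger receptors, Stab2 and Lyve1 bind hyaluronan, and Clec4g is a C-type lectin of sinusoidal endothelium (LSECtin). Pecam1 and Cdh5 encode junction proteins, CD31 and VE-cadherin, that are shared by endothelium in general. PPARα is best known in hepatocytes, where it drives the genes of fatty acid oxidation.

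The promoters of Kdr and Stab2 are shown because the signals of these genes, of the members whose promoter sequence was at hand, were the pair that both fell under the higher PFOA dose in wild-type liver, as described further on. Each sequence is the stretch of 250 bases before the start that the table of RefSeq promoters used here gives for the gene (GRCm38.p6), 5′ to 3′ on the strand of the gene. For both genes that start lies inside the interval annotated for the whole gene, so the stretch overlaps the interval, and the table does not name the transcript that begins there. Kdr lies on chromosome 5, at chr5:75932827-75979072, and its stretch is chr5:75978456-75978705 on the minus strand. Stab2 lies on chromosome 10, at chr10:86841194-87008038, and its stretch is chr10:87007943-87008192 on the minus strand. Capitals mark GGAA, the core letters of sites bound by ETS factors such as ERG, or its complement TTCC.
Kdr: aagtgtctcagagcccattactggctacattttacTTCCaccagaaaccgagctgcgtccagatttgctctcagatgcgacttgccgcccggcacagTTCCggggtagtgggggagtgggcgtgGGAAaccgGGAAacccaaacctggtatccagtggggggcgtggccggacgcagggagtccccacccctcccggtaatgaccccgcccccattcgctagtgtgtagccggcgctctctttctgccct
Stab2: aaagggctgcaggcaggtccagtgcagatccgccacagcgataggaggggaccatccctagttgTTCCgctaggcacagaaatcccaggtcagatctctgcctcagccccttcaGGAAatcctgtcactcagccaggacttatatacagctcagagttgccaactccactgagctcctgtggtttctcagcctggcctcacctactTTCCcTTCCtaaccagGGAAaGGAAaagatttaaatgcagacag
GGAA was matched on both strands 4 times in the Kdr stretch and 6 times in the Stab2 stretch. Of 27025 RefSeq promoters of the same length, 93.4% held at least 1 match, 33.4% held as many as Kdr and 8.7% held as many as Stab2. The letters AGGTCANAGGTCA, a direct repeat of AGGTCA spaced by 1 base, which is the repeat that PPAR and RXR bind, were searched on both strands and were in neither stretch, as in all but 0.037% of promoters. The single AGGTCA was found once in the Stab2 stretch and not in that of Kdr, and 13.8% of promoters held at least 1. Promoters were also at hand for Stab1 with 6 GGAA matches, Tek with 2 and Clec4g with 5.

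Some arrays stood apart before any marker was considered. On replicate 3 of the wild-type group given 1 mg/kg PFOA, going by its label, Cyp4a14 and Ehhadh, classical PPARα target genes, had log2 signals of 11.65 and 15.94, whereas the other 3 arrays of that group lay between 20.21 and 20.28 for Cyp4a14 and between 20.01 and 20.31 for Ehhadh. Acot1, another PPARα target, was at 16.47 on it, below the 17.81 to 18.33 of those 3 arrays but above every wild-type vehicle array, the highest of which was at 14.23. Beside the wild-type arrays, this array thus went against its label for Cyp4a14 and Ehhadh and only in part for Acot1. Its 3 values also lay within the ranges of the 20 null arrays. Those ranges were 6.53 to 14.89 for Cyp4a14, 15.37 to 17.07 for Ehhadh and 14.30 to 17.05 for Acot1. Which label the array should carry was not tested. It was kept under its label, and the differences of single markers called or described at 1 mg/kg PFOA, and the counts of calls there, are given with and without it. Leaving it out did not alter the number of markers called in any of the 11 comparisons. The Ppara probe lay between 15.00 and 16.29 on the 20 null arrays and between 15.62 and 16.84 on the 19 wild-type arrays, and where it lies relative to the deleted part of the gene is not known here, so it does not check the genotype labels. The arrays also fell into a smaller set of 16 and a larger set of 23 by 144 probes that varied together within groups. The labels do not name this split, but it went in part with the replicate number. Replicate 2 was in the larger set in every group and replicate 3 in most, while replicates 1 and 4 were mostly in the smaller set. Both sets were present in 9 of the 10 groups, and all 4 arrays of wild-type mice given Wy14,643 were in the larger set.

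In wild-type liver, Lyve1 signal rose and Kdr and Stab2 signals fell after 3 mg/kg PFOA, while Kdr, Tek and Clec4g signals fell after Wy14,643. Kdr fell under both compounds by about the same amount, to 1.33-fold lower with PFOA and to 1.40-fold lower with Wy14,643. None of the 8 markers passed the test across all probes in PPARα-null liver under any treatment. Lyve1 there gave log2 differences of 0.96 and 1.04 with 1 and 3 mg/kg PFOA and -1.08 with Wy14,643, which did not pass that test. That test was limma on the log2 values of all 25295 probes with a value on every array, and a difference is called here when its p-value, adjusted by the method of Benjamini and Hochberg over all of those probes, was under 0.05. In whole liver, fewer endothelial cells and less of a transcript in each cell cannot be told apart.

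**Figure D1:**
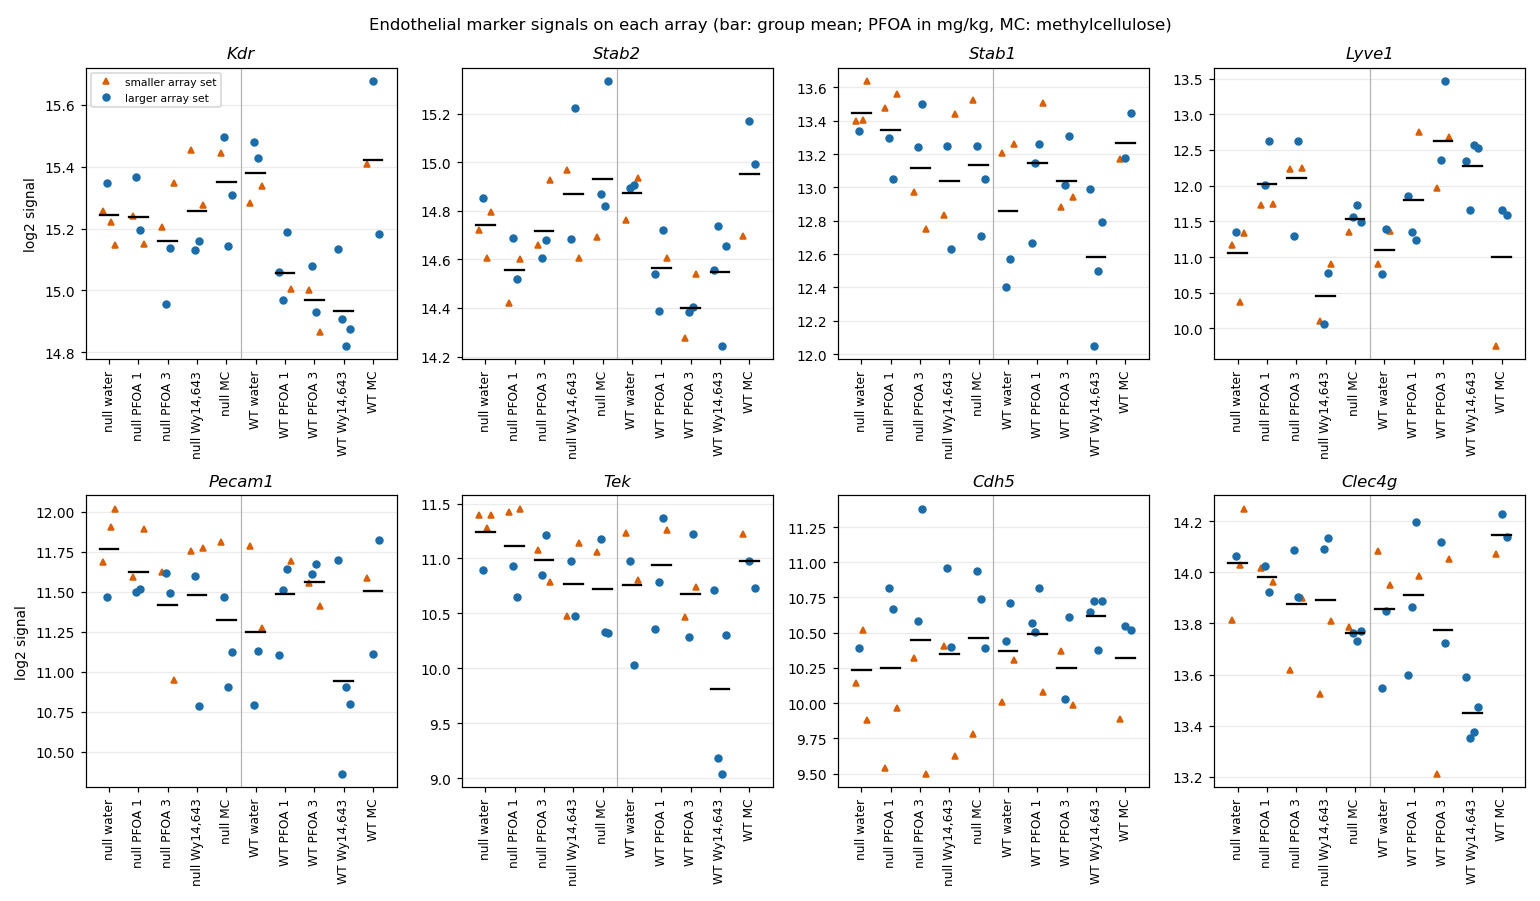
Log2 signal (vertical axes) of each of the 8 endothelial markers on each of the 39 arrays, by group, with PPARα-null groups on the left and wild-type (WT) groups on the right of each panel. Bars are group means, and symbols mark the smaller and the larger array set. In wild-type liver Kdr stood at or below 15.08 on all 4 arrays of the higher PFOA dose, and Cdh5 was on average lower on arrays of the smaller set within each group that held both.

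Kdr was the member with the tightest replicates, with a pooled standard deviation within groups of 0.13. In wild-type liver its log2 signals were 15.28, 15.48, 15.43 and 15.34 with water, 15.06, 14.97, 15.19 and 15.01 with 1 mg/kg PFOA, and 15.00, 15.08, 14.93 and 14.86 with 3 mg/kg PFOA. Every array of either PFOA dose was below every water array. At 3 mg/kg the mean was 14.97 ± 0.09 (SD, n = 4), against 15.38 ± 0.09 with water (SD, n = 4), a log2 difference of -0.41 ± 0.12 (SE; adjusted p = 0.0343). The call was lost without water replicate 2, 3 or 4, or without PFOA replicate 3 or 4, with adjusted p between 0.0627 and 0.110 and differences between -0.43 and -0.38. At 1 mg/kg the difference was -0.33 ± 0.12 and was not called (adjusted p = 0.310), nor was it without the array that went against its label (-0.37, adjusted p = 0.226). Both doses were set against the same water arrays. In null liver Kdr gave 15.26, 15.35, 15.22 and 15.15 with water, 15.24, 15.37, 15.20 and 15.15 with 1 mg/kg, and 15.21, 14.96, 15.14 and 15.35 with 3 mg/kg, groups that overlapped throughout. The difference at 3 mg/kg was -0.08 there, and the difference between the genotypes' responses, 0.33, was not called (adjusted p = 0.482).

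With Wy14,643, Kdr signals in wild-type liver were 15.13, 14.91, 14.82 and 14.87, against 15.41, 15.68 and 15.18 with methylcellulose. The groups did not overlap, although the highest treated array and the lowest vehicle array were only 0.05 apart. The difference was -0.49 ± 0.13 (adjusted p = 0.0194), and it was not called without methylcellulose replicate 1 (adjusted p = 0.0587), methylcellulose replicate 2 (-0.36, adjusted p = 0.156) or Wy14,643 replicate 3 (adjusted p = 0.0618). In null liver Kdr gave 15.46, 15.13, 15.16 and 15.28 with Wy14,643, against 15.44, 15.50, 15.14 and 15.31 with methylcellulose, with no separation and a difference of -0.09. The difference between these responses was 0.39 and was not called (adjusted p = 0.270). Across the 10 groups Kdr means ran in order from 14.93 in wild-type mice given Wy14,643 and 14.97 and 15.06 in wild-type mice given 3 and 1 mg/kg PFOA, through 15.16 to 15.35 in the 5 null groups, to 15.38 and 15.42 in the wild-type vehicle groups. No neighbours in that order were further apart than the pooled standard deviation.

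Tek, the angiopoietin receptor, was called in 1 comparison, Wy14,643 in wild-type liver. Its signals in wild-type liver were 10.71, 9.18, 9.04 and 10.30 with Wy14,643, against 11.23, 10.98 and 10.73 with methylcellulose. The groups did not overlap, and 2 of the treated arrays were lower for Tek than any other array. The difference was -1.17 ± 0.34 (adjusted p = 0.0349), or 2.24-fold lower. With 3 mg/kg PFOA in wild-type liver the difference was -0.08 ± 0.31. The wild-type Wy14,643 mean of 9.81 ± 0.82 (SD, n = 4) lay 0.87 below the next group, whereas the other 9 group means lay between 10.68 and 11.24 with no neighbours further apart than the pooled standard deviation of 0.45. The call for Tek was lost when the mean signal of probes for genes not expected in liver was added to the fit (-0.85, adjusted p = 0.106), and without any 1 methylcellulose array or Wy14,643 replicate 2 or 3 (-1.29 to -0.91, adjusted p between 0.0605 and 0.145). In null liver Tek gave 10.48, 10.98, 10.48 and 11.14 with Wy14,643, against 11.06, 11.18, 10.33 and 10.32 with methylcellulose, a difference of 0.05. The difference between the responses was 1.22 ± 0.46 and was not called (adjusted p = 0.187).

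Stab2, the main hyaluronan scavenger receptor of the sinusoid, followed Kdr with PFOA. Its log2 signals in wild-type liver were 14.76, 14.90, 14.91 and 14.94 with water, 14.54, 14.39, 14.72 and 14.61 with 1 mg/kg, and 14.27, 14.38, 14.41 and 14.54 with 3 mg/kg. The arrays of neither dose overlapped the water arrays. At 3 mg/kg the difference was -0.47 ± 0.15 (adjusted p = 0.0487), close to the threshold, and it was lost on leaving out any 1 of the 8 arrays compared, with adjusted p between 0.0503 and 0.117. At 1 mg/kg it was -0.31 ± 0.15 and was not called (adjusted p = 0.434; -0.36 without the array that went against its label).

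The other Stab2 probe, which had a mean log2 signal of 9.62 against 14.71 for the probe used, gave a difference of 0.40 ± 0.45 at 3 mg/kg in wild-type liver (adjusted p = 0.698), on the opposite side of 0. It was called in none of the 11 comparisons. With Wy14,643 the Stab2 probe used gave 14.56, 14.74, 14.24 and 14.66 in wild-type liver, against 14.69, 15.17 and 14.99 with methylcellulose. One treated array lay above the lowest vehicle array, and the difference of -0.40 ± 0.16 was not called (adjusted p = 0.127). In null liver Stab2 gave differences of -0.19, -0.03 and -0.06 with 1 mg/kg PFOA, 3 mg/kg PFOA and Wy14,643. Its 10 group means ran from 14.40 in wild-type mice given 3 mg/kg PFOA to 14.95 in wild-type mice given methylcellulose, with no neighbours further apart than the pooled standard deviation of 0.18.

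Lyve1, the hyaluronan receptor that also marks lymphatic endothelium, had the widest range of group means of the 8 members, 2.16 on the log2 scale. The means ran from 10.46 in null mice given Wy14,643, through the 4 vehicle groups, the highest of them at 11.54, and 11.80 to 12.10 in wild-type mice given 1 mg/kg PFOA and null mice given either dose, to 12.28 and 12.62 in wild-type mice given Wy14,643 and 3 mg/kg PFOA. Neighbours in that order were nowhere further apart than the pooled standard deviation of 0.54. In wild-type liver its signals were 10.90, 10.76, 11.39 and 11.37 with water, 11.86, 11.35, 11.24 and 12.76 with 1 mg/kg PFOA, and 11.97, 12.36, 13.47 and 12.68 with 3 mg/kg. All arrays of the higher dose lay above all water arrays, while those of the lower dose overlapped them. The difference at 3 mg/kg was 1.52 ± 0.38 (adjusted p = 0.0123), or 2.86-fold higher. It lost its call without wild-type water replicate 2 (1.40, adjusted p = 0.0520) and without wild-type PFOA 3 mg/kg replicate 3 (1.24, adjusted p = 0.0815). Within the array sets it was 1.19 in the smaller and 1.84 in the larger set.

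At 1 mg/kg the Lyve1 difference in wild-type liver was 0.70 ± 0.38 and was not called (adjusted p = 0.506; 0.88 without the array that went against its label). In null liver the signals were 11.17, 11.35, 10.38 and 11.34 with water, 11.72, 12.01, 12.62 and 11.74 with 1 mg/kg PFOA, and 12.23, 11.30, 12.63 and 12.24 with 3 mg/kg. Every 1 mg/kg array was above every water array, and 3 of the 4 arrays of the higher dose were. The differences were 0.96 ± 0.38 (adjusted p = 0.9997) and 1.04 ± 0.38 (adjusted p = 0.397), and neither was called. The response to 3 mg/kg was 0.48 smaller in null than in wild-type liver, with a 95% interval from -1.56 to 0.61 for that difference of responses, which includes 0.

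With Wy14,643 the Lyve1 signals of the genotypes lay on opposite sides of their vehicles. In null liver they were 10.10, 10.06, 10.77 and 10.90 with Wy14,643, against 11.36, 11.56, 11.73 and 11.49 with methylcellulose. In wild-type liver they were 12.34, 11.66, 12.57 and 12.53 with Wy14,643, against 9.76, 11.66 and 11.59 with methylcellulose. Neither pair of groups overlapped, though the lowest treated wild-type array and the highest vehicle array differed by less than 0.01. The differences were -1.08 ± 0.38 in null liver (adjusted p = 0.9999) and 1.27 ± 0.41 in wild-type liver (adjusted p = 0.0561), neither of them called alone. The wild-type difference was called without wild-type methylcellulose replicate 2, at 1.60 (adjusted p = 0.0427). It was also called without wild-type Wy14,643 replicate 2, at 1.48 (adjusted p = 0.0427). These were the 2 of 8 fits with 1 array left out that called it, and 3 of 10 other alternatives did.

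The difference between those responses was called, at -2.35 ± 0.56 for null minus wild type (adjusted p = 0.0284). It rests in part on wild-type methylcellulose replicate 1, whose 9.76 was the lowest Lyve1 signal of all 39 arrays. Without it the wild-type response was 0.65 (adjusted p = 0.428) and the difference between responses was -1.73 (adjusted p = 0.118). The call was also lost without null Wy14,643 replicate 2 (-2.22), null methylcellulose replicate 3 (-2.28) or wild-type Wy14,643 replicate 3 (-2.25), with adjusted p of 0.0610, 0.0619 and 0.0614.

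Clec4g, the sinusoidal lectin, was lower on every wild-type Wy14,643 array than on any methylcellulose array of that genotype. The signals were 13.59, 13.35, 13.38 and 13.47, against 14.07, 14.23 and 14.14 with methylcellulose. The gap between these groups, 0.48 between their nearest arrays, was wide beside their standard deviations of 0.11 and 0.08. The difference was -0.70 ± 0.18 (adjusted p = 0.0161), or 1.62-fold lower, and it was not called without methylcellulose replicate 2 (adjusted p = 0.0696) or 3 (adjusted p = 0.0551). In null liver Clec4g gave 13.52, 14.09, 14.13 and 13.81 with Wy14,643, against 13.79, 13.76, 13.73 and 13.77 with methylcellulose. The treated null arrays lay on both sides of the vehicle arrays. The difference was 0.13 ± 0.17, and the difference between the responses, 0.82 ± 0.24, was not called (adjusted p = 0.0811). The wild-type Wy14,643 mean of 13.45 lay 0.31 below the next group, more than the pooled standard deviation of 0.22, and the other 9 means lay between 13.76 and 14.15 without such a gap. The highest of them, 14.15, was that of the wild-type methylcellulose arrays. With methylcellulose, null minus wild type gave -0.38 ± 0.18, which was not called (adjusted p = 0.378). The wild-type water arrays, from 13.55 to 14.08, overlapped the wild-type Wy14,643 arrays. With 3 mg/kg PFOA the Clec4g difference was -0.08 ± 0.17 in wild-type liver.

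Stab1, the other stabilin, was not called in any comparison. With Wy14,643 in wild-type liver it gave 12.99, 12.05, 12.50 and 12.79, against 13.17, 13.18 and 13.45 with methylcellulose. These groups did not overlap, and the difference was -0.68 ± 0.25 (adjusted p = 0.0948). With PFOA at 3 mg/kg the Stab1 difference was 0.18 ± 0.23 in wild-type and -0.33 ± 0.23 in null liver. With water alone, null livers gave 13.40, 13.34, 13.40 and 13.64, against 13.20, 12.40, 12.57 and 13.26 in wild-type livers. Those groups did not overlap either, and the difference of 0.59 ± 0.23 was not called (adjusted p = 0.408). The mean signal of the probes for genes not expected in liver was 8.76 in the null water group and 8.98 in the wild-type water group. With that mean in the fit the Stab1 difference was 0.20 (adjusted p = 0.9998). The 10 group means of Stab1 ran from 12.58 in wild-type mice given Wy14,643 to 13.45 in null mice given water, with no neighbours further apart than the pooled standard deviation of 0.32.

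The junction genes did not separate the groups. Pecam1 means ran from 10.94 ± 0.56 in wild-type mice given Wy14,643 to 11.77 ± 0.24 in null mice given water (SD, n = 4 each), and no neighbours in the order of the 10 groups were further apart than the pooled standard deviation of 0.36. With Wy14,643 in wild-type liver Pecam1 gave 11.70, 10.36, 10.90 and 10.80, against 11.59, 11.11 and 11.82 with methylcellulose. The highest treated array lay among the vehicle arrays while the other 3 lay below them, and the difference was -0.57 ± 0.27 (adjusted p = 0.232). Cdh5 group means spanned 0.38, from 10.23 in null mice given water to 10.62 in wild-type mice given Wy14,643, less than its pooled standard deviation of 0.45. Its differences lay between -0.12 and 0.30 over the 6 comparisons of a treatment with its vehicle.

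**Figure D2:**
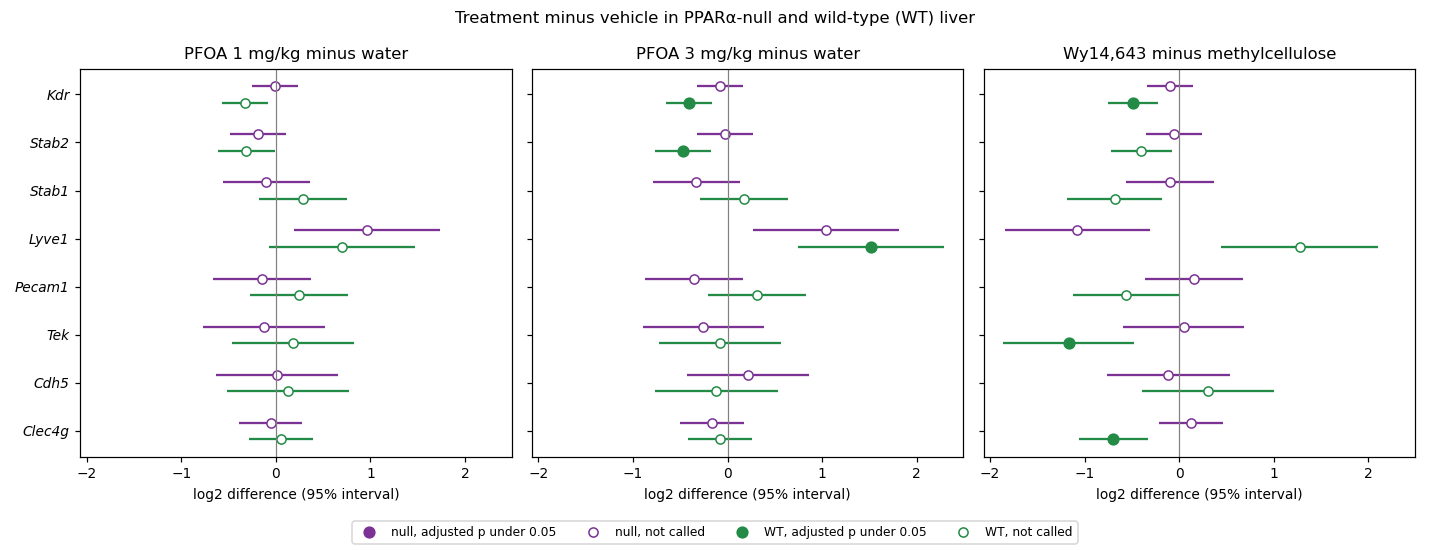
Log2 difference of treatment minus vehicle (horizontal axes) for each marker in PPARα-null and wild-type (WT) liver, with bars for the 95% interval of the fit. Filled points have an adjusted p under 0.05 over all 25295 probes. The 6 filled points are all in wild-type liver, and Lyve1 with Wy14,643 is the marker whose intervals lie on opposite sides of 0 in the genotypes.

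The number of markers called is set here beside that of all probes tested. With 3 mg/kg PFOA in wild-type liver, 3 of the 8 were called, 1 higher and 2 lower (0 to 3 with 1 array left out), where 5.82% of all probes were called, 3.37% higher and 2.46% lower. With Wy14,643 in wild-type liver 3 of the 8 were called, all lower (1 to 5 with 1 array left out, and no lower marker without methylcellulose replicate 2, where Lyve1, higher, was the only one), where 6.1% of all probes were called, 2.8% higher and 3.3% lower. Groups that did not overlap were also common among all probes: with Wy14,643 in wild-type liver 9.55% of probes were lower on every treated array and 7.8% were higher, and with 3 mg/kg PFOA 4.53% were lower and 5.7% higher. All 8 markers are among the 16287 probes above the median mean signal, of which larger shares were called than of all probes. Fitted alone, those probes gave 1825 calls with 3 mg/kg PFOA in wild-type liver, 3 of them markers. With Wy14,643 in wild-type liver they gave 2102 calls, 4 of them markers. For the difference of the Wy14,643 responses they gave 612 calls, 2 of them markers. With 1 mg/kg PFOA in wild-type liver no marker was called, where 0.273% of probes were. Without the array that went against its label, again no marker was called, beside 249 of the 25295 probes, against 69 with it. With it, 2 of the 8, Kdr and Stab2, were lower on every treated array, as were 2.34% of all probes.

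In null liver no marker was called with 3 mg/kg PFOA, 1 mg/kg PFOA or Wy14,643, where 0.3%, 0.0119% and 0% of all probes were called. By limma's p before adjustment, Lyve1 alone passed 0.05 in each of those 3 comparisons. Of the 25295 probes, 2111 passed with 3 mg/kg PFOA, 1003 with 1 mg/kg and 691 with Wy14,643, and 1 of 8 markers at 3 mg/kg is near that share. With 1 mg/kg PFOA, Lyve1 was higher on every treated array, as were 2.24% of probes, and with Wy14,643 it was lower on every treated array, as were 0.581%. Between genotypes no marker was called with water, where 0.127% of probes were, or with methylcellulose, where 0.186% were. Before adjustment 2 passed with water, Stab1 and Pecam1, beside 2723 of all probes, and 1 with methylcellulose, Clec4g, beside 3158 of all probes, which is about the same share. Stab1 was higher on every null water array, as were 4.74% of probes. Clec4g was lower on every null methylcellulose array, as were 8.13% of probes. The difference between genotypes in the response to Wy14,643 was called for 1 marker, Lyve1, where 1.24% of probes were called and 0.542% were lower in null liver like Lyve1, and that in the response to PFOA for none at 3 mg/kg, where 0.415% were, or at 1 mg/kg, where 0% were (1274 probes and no marker passed 0.05 before adjustment). Without the array that went against its label, no marker and 41 probes were called in the comparison at 1 mg/kg.

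Other endothelial genes also fell with Wy14,643 in wild-type liver. Of 24 further endothelial genes tested, 5 fell and none rose, where 3.3% of all probes were called lower, and 20 of the 24 lay below 0. This list, like the others, was chosen with earlier results of these data known. Its count was added after the data were seen, so it is not an independent check of the markers. The median log2 difference was -0.34, beside -0.53 for the 8 markers and -0.03 for all probes. The count of 5 was 1 without methylcellulose replicate 2, 2 without methylcellulose replicate 3, and 3 without methylcellulose replicate 1 or Wy14,643 replicate 2, with medians between -0.46 and -0.27. With the mean signal of probes for genes not expected in liver in the fit, the count was 4 and the median was -0.19. Eng, the TGF-beta co-receptor endoglin, fell by 0.54 ± 0.12 (adjusted p = 0.00670). Ptprb, the phosphatase VE-PTP that acts on Tie2 and VE-cadherin, fell by 0.71 ± 0.17, and Fcgr2b, the inhibitory IgG receptor by which sinusoidal endothelium clears immune complexes, fell by 0.65 ± 0.16 (adjusted p = 0.0108 and 0.0113). Plvap, a protein of endothelial diaphragms, fell by 0.81 ± 0.21, with an adjusted p of 0.0176. The call for the fifth, the tight junction gene Cldn5, was the nearest to the threshold, at -0.69 ± 0.21 (adjusted p = 0.0405), and it lies outside the 4 named by smallest adjusted p. In null liver the same list had a median of 0.05, and none was called.

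Genes around the markers' own pathways are set beside all probes, of which 6.1% were called with Wy14,643 in wild-type liver, 3.3% lower. Of the genes called here, Ptprb, Cldn5 and Fcgr2b were already counted among the further endothelial genes above. Of 15 tested genes of VEGF and angiopoietin ligands and receptors, Ptprb was the only one called with Wy14,643 in wild-type liver, and the median was -0.26. Among those not called, Vegfa, the ligand of Kdr, gave -0.60 (adjusted p = 0.306), and Tie1, the partner of Tek, gave -0.64 (adjusted p = 0.487). Of the 15 genes, 6 lay above 0. Among 9 junction partners of Cdh5 and Pecam1, Cldn5 alone was called. Of 6 angiocrine ligands, signals that endothelium sends to hepatocytes, Bmp6, which drives hepatic hepcidin, fell by 1.06 ± 0.29 (adjusted p = 0.0259). Of 5 other clearance receptors, the mannose receptor Mrc1 fell by 0.78 ± 0.18 (adjusted p = 0.00705) and Fcgr2b fell as given above.

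Markers of other cells moved in the same comparison. Of 10 Kupffer cell genes, the liver's resident macrophages, 5 fell and none rose, with a median of -0.72, and the 4 with the smallest adjusted p were Clec4f, Cd163, Vsig4 and C1qa. That count was 1 without methylcellulose replicate 2, 2 without methylcellulose replicate 3, and 3 without methylcellulose replicate 1 or Wy14,643 replicate 2 or 4, and with the mean of probes for genes not expected in liver in the fit it was 3. In null liver all 10 lay above 0 with a median of 0.39, and none was called. The mean of the 10 Kupffer genes was 12.46 on the wild-type Wy14,643 arrays (12.36 to 12.56), against 13.03 on the methylcellulose arrays (12.96 to 13.16). The mean of the 24 further endothelial genes was 11.54 (11.38 to 11.73) with Wy14,643, against 11.89 (11.78 to 11.98) with methylcellulose. Of 8 stellate cell genes Rgs5 fell, and of 6 hepatocyte genes Trf and Ahsg fell (medians -0.38 and -0.28). Of 2 red blood cell genes Alas2 fell, and the median of the 2 was -1.21. None of 4 cholangiocyte, 5 lymphocyte or 4 neutrophil genes was called, lists whose medians lay above 0, at 0.47, 0.32 and 0.27. The part of these other cells in the markers' fall was not tested.

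**Figure D3:**
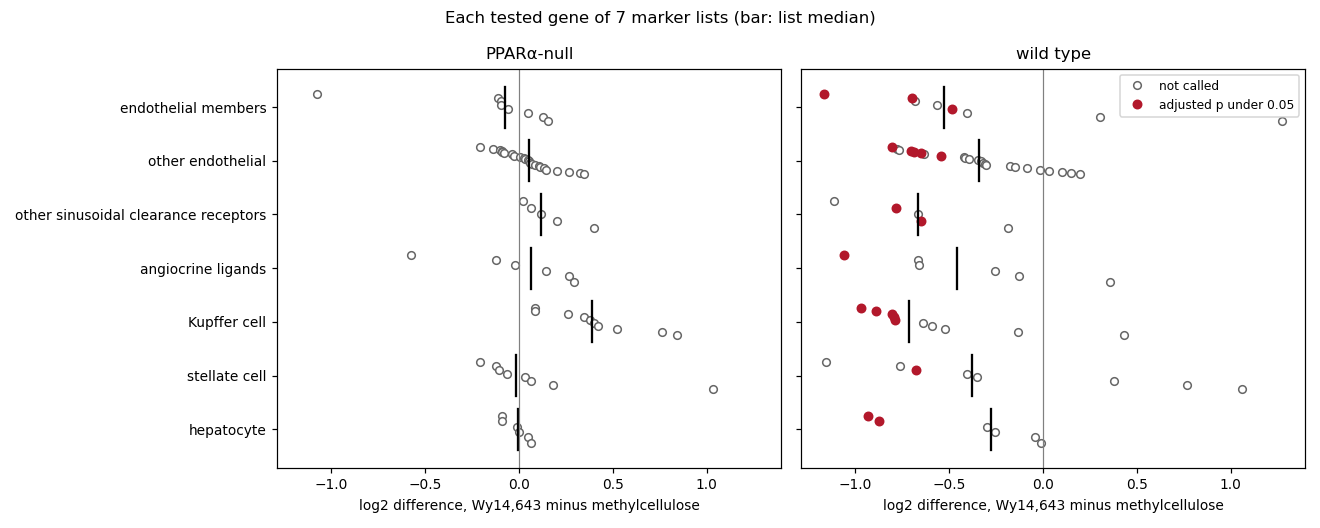
Log2 difference of Wy14,643 minus methylcellulose (horizontal axes) for each tested gene of 7 lists in PPARα-null (left) and wild-type liver (right), with filled points for an adjusted p under 0.05 and a bar at the list median. In wild-type liver the medians of the 7 lists shown lie below 0, with -0.53 for the 8 markers and -0.72 for Kupffer cell genes. Of the lists not drawn, the medians of cholangiocyte, lymphocyte and neutrophil genes lie above 0. Those of red blood cell, VEGF and angiopoietin, and junction genes lie below it. Lyve1 is the marker above 1 in wild-type liver.

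With 3 mg/kg PFOA in wild-type liver no gene of the wider endothelial list was called beside Kdr and Stab2. None of the 24 genes was called, 5 passed 0.05 before adjustment, a share close to the 4700 of all 25295 probes that did, and the median was -0.05, beside -0.08 for the 8 markers and -0.02 for all probes. Kupffer cell genes had a median of -0.52 with all 10 below 0, and Vsig4 was the one that fell. Dcn of stellate cells and Ahsg and Fga of hepatocytes fell too. None of the genes in the VEGF and angiopoietin, junction, angiocrine or clearance lists was called. In null liver with 3 mg/kg PFOA, none of the endothelial genes was called, and Col1a1, a collagen gene of stellate cells, and S100a8, a neutrophil gene, rose by 3.10 and 7.44 on the log2 scale. No other gene of those 2 lists was called: Col1a2 gave 0.16, Col3a1 0.19 and Pdgfrb -1.09, and S100a9 gave -0.28, Ltf -0.36 and Camp 0.63.

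The genotypes' responses to Wy14,643 also differed for 2 of the 24 further endothelial genes. Eng and Fcgr2b gave differences of 0.68 ± 0.17 and 0.85 ± 0.22 for null minus wild type (adjusted p = 0.0373 and 0.0399). Of all probes, 0.696% were called in that direction. The alternatives were not run for the list genes in this comparison. Its calls over all probes went from 313 in the main fit to 2 within the larger array set. The list's median was 0.45, beside 0.49 for the 8 markers and 0.06 for all probes. Among Kupffer cell genes Vsig4 and C1qb gave 1.19 and 1.31, and the hepatocyte gene Trf gave 1.00. Lyve1 was the only endothelial gene called in the other direction.

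The markers did not vary as 1 block over the 39 arrays. Stab1 correlated with Pecam1 and with Tek. Stab1 and Pecam1 gave a Pearson r of 0.835 and a Spearman rho of 0.719 (permutation p = 1e-05, the smallest that 100000 resamples can give, and 2e-05; adjusted over 28 pairs 9.33e-05 and 0.00021). The r was 0.762 without the 2 most extreme arrays, 0.653 and 0.865 in the smaller and larger array sets, and 0.788 once group means were removed. For each pair of markers, the 2 most extreme arrays were the 2 farthest from the median of the gene named first. Extremes of the other gene were not left out. Stab1 and Tek gave an r of 0.804 and a rho of 0.779, and an r of 0.822 without the 2 most extreme arrays, 0.812 and 0.768 in the sets, and 0.712 once group means were removed (permutation p = 1e-05 for both, adjusted 9.33e-05 and 0.00021).

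Kdr and Stab2 formed a looser pair, with an r of 0.619 and a rho of 0.655 (permutation p = 5e-05 and 3e-05, adjusted 0.000336 and 0.00021). Their r was 0.516 without the 2 most extreme arrays and 0.623 and 0.655 in the sets, but 0.227 once group means were removed, so that most of it lay between groups. Kdr and Lyve1 ran against each other, with an r of -0.488 and a rho of -0.487 (permutation p = 0.00168 and 0.00183, adjusted 0.00672 and 0.0102). That r was -0.509 without the 2 most extreme arrays, -0.688 and -0.363 in the sets, and -0.02 once group means were removed.

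Signal of genes that liver is not expected to use moved with several markers. The mean log2 signal of 578 probes for keratin-associated proteins and for receptors of smell, taste and pheromones ranged from 8.67 to 9.22 over the arrays. Stab1 was lower where it was higher, with an r of -0.676 and a rho of -0.589 (permutation p = 1e-05 and 0.00013, adjusted over 8 markers 8e-05 and 0.00104), and an r of -0.681 without the 2 most extreme arrays and -0.710 and -0.753 in the smaller and larger sets. Here and for the other markers, those 2 arrays were the 2 farthest from the median of the 578-probe mean. For Clec4g, Pecam1 and Tek the r was -0.578, -0.577 and -0.527 (rho -0.510, -0.528 and -0.551; permutation p = 0.00012, 0.00021 and 0.00056, adjusted 0.00048, 0.00056 and 0.00112; p for rho 0.00108, 0.0007 and 0.00033). Without the 2 most extreme arrays those r were -0.579, -0.727 and -0.510. Within the smaller set they were -0.657, -0.383 and -0.832, and within the larger set -0.526, -0.820 and -0.523. Stab2 ran the other way, with an r of 0.377 and a rho of 0.349 (permutation p = 0.0185 and 0.0308, adjusted 0.0296 and 0.0493), and an r of 0.313 without the 2 most extreme arrays and 0.354 and 0.411 in the sets. Kdr gave an r of 0.157 and a rho of 0.181 (permutation p = 0.336 and 0.269; r 0.004 without the 2 most extreme arrays, 0.282 and 0.093 in the sets).

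This signal averaged 8.91 in wild-type mice given Wy14,643 and 8.76 in wild-type mice given methylcellulose. With it in the fit, the Wy14,643 differences in wild-type liver were -0.52 for Kdr (adjusted p = 0.0152) and -0.53 for Clec4g (adjusted p = 0.0409), both still called, -0.85 for Tek, -0.41 for Stab1 and -0.33 for Pecam1. With it in the fit for 3 mg/kg PFOA, Lyve1 stayed called at 1.45 (adjusted p = 0.0312), while Kdr at -0.38 and Stab2 at -0.38 were not (adjusted p = 0.0674 and 0.145).

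**Figure D4:**
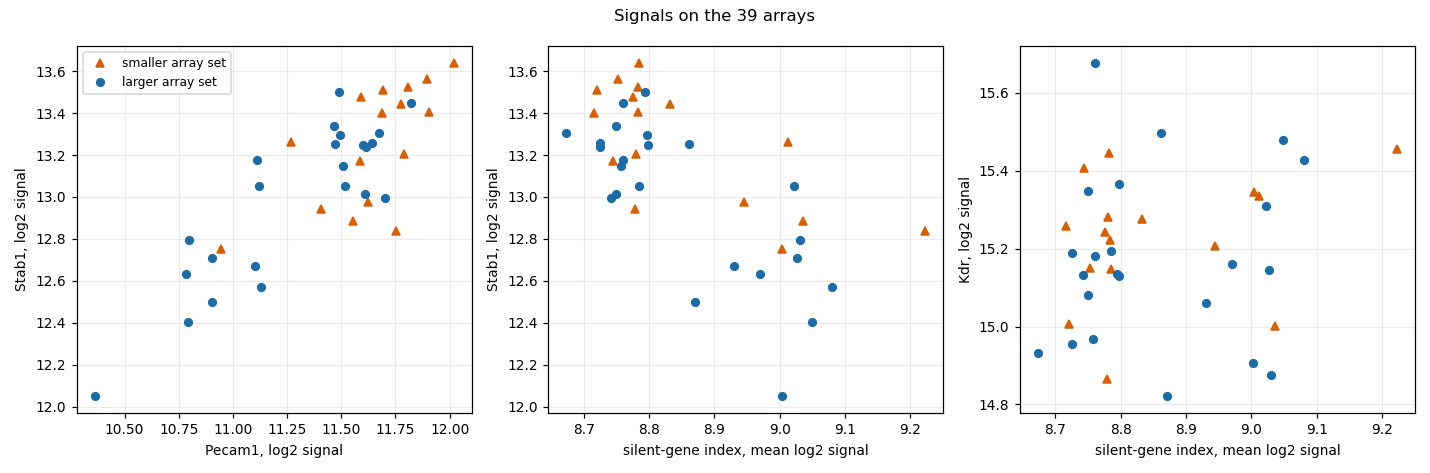
Log2 signals on the 39 arrays: Stab1 against Pecam1 (left), and Stab1 (middle) and Kdr (right) against the mean log2 signal of 578 probes for genes not expected in liver. Stab1 rises with Pecam1 (r = 0.835) and falls along the mean of those probes (r = -0.676), whereas Kdr shows no such slope (r = 0.157).

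Cdh5 followed the array sets rather than the groups. In all 9 groups that held both sets, its mean was lower on the arrays of the smaller set, by 0.14 to 1.07 on the log2 scale and by 0.62 on average over the groups. No other marker had the same sign in all 9 groups, and Tek and Pecam1 were higher in the smaller set in 7 of 9. For Kdr the sets differed by 0.01 on average.

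Outside the markers, the probes whose signal over the 39 arrays was most like each of them, by Pearson r over single-symbol probes, were these 2 per marker. Kdr was most like Cxcl12 (r = 0.820), a chemokine gene, and Fam168a (0.799), and Stab2 was most like Tpp1 (0.817) and Zfp148 (0.804). Stab1 and Tek shared C1rl (0.876 and 0.817), with Ggact (0.865) and Atg2b (0.816) as their others. Pecam1 was most like Pdcd6ip (0.862) and Tfec (0.855), and Clec4g most like Masp2 (0.852) and Angptl6 (0.850), which are genes that hepatocytes express. Lyve1 was most like 2010003K11Rik (0.759) and Msrb2 (0.740). The genes most like Cdh5, Lalba (0.795) and Lrtm2 (0.770), were both among the 144 probes that define the array sets.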

How the data were processed

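Liver RNA was hybridised, 1 animal per array, to Applied Biosystems Mouse Genome Survey arrays, with RNA selected for integrity, per the labels' protocols. The authors deposited 1 table of normalized log2 values, which ran from 4.85 to 21.55 with array medians between 9.1356 and 9.1365. No source used here gives the log base or the normalization method, and base 2 was taken from the range of the values. Of 33012 probes, 14411 had 1 symbol in the platform annotation, 247 several and 18354 none. Probes without a value on some array (7717, none of them a marker) did not enter the tests. Detection flags and scanner intensities were not used, so whether weak probes lay above background was not checked. The number of arrays limits the precision.

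Differences came from limma (version 3.58.1, R version 4.3.3), in a model of all 39 arrays with a mean for each of the 10 groups, and p-values were adjusted by Benjamini-Hochberg within each of 11 comparisons. It was tested on simulated data. Its p-values set a difference against the spread between animals within groups, pooled over all 10 groups and moderated over probes. The p-values of correlations came from shuffling arrays over all groups, so differences between groups count towards them. Correlations used 100000 permutations (numpy 2.4.6), with ranks from scipy 1.17.1. The labels do not say that replicate numbers pair animals, and none were paired in the main fit. In 0 of 8 pairs of groups did every same-numbered pair of arrays deviate together (r over 0.1). A single low pair of arrays is enough to fail that check, so it cannot exclude a block shared by same-numbered arrays. The numbers went in part with the array sets. No array was identical to another. All 8 markers are named, as are up to 4 genes per list and comparison with the smallest adjusted p, and the 2 probes most like each marker. Some other list genes, such as Vegfa and Tie1, are named beside those. The markers and lists were chosen with earlier results of these data known. Alternatives were array sets, the mean of silent-gene probes, the replicate number, each array left out, other filters, normalization, weights and fits, and the other probe of Stab2.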

Additional observations from a re-analysis of the deposited data

Results flagged for a closer look

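The Lyve1 response to Wy14,643 differed between genotypes by a test of that difference. The difference of responses was -2.35 ± 0.56 on the log2 scale, null minus wild type (limma adjusted p = 0.0284). The null response was -1.08 and the wild-type response was 1.27, and neither was called alone. Leaving out wild-type methylcellulose replicate 1 gave -1.73 (adjusted p = 0.118). That group, with 3 arrays, was too small for the check of single arrays within groups, so its replicate 1 (9.76, beside 11.66 and 11.59) was not put to it. In the 9 groups of 4 arrays, the check set no array apart for any of the 8 markers (72 sets).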

How the results depend on the processing

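Of 88 marker differences 7 were called, and 11 were called under at least 1 alternative. A called difference changed sign once, when the other Stab2 probe gave 0.40 for 3 mg/kg PFOA in wild-type liver. For 3 mg/kg PFOA in wild-type liver (3 markers called), the count was 0 within the smaller array set, 1 within the larger set, 1 with the silent-gene mean in the fit, 1 with probes of missing values included, 0 with only the 2 groups fitted, and 0 to 3 with 1 array left out (0 without water replicate 2 or PFOA replicate 3). For Wy14,643 in wild-type liver (3 called), it was 0 within the larger set, 5 with array weights, 0 with only the 2 groups fitted, and 1 to 5 with 1 array left out (5 without Wy14,643 replicate 1, 1 without any 1 methylcellulose array or Wy14,643 replicate 3, which without methylcellulose replicate 2 was Lyve1, higher), and no value was possible within the smaller set, which holds none of the treated arrays. For the difference of the Wy14,643 responses (1 called), it was 0 within the larger set, 0 with only the 4 groups fitted, 0 to 2 with 1 array left out, and 2 with probes above the median mean, with trend and robust settings, with array weights or with the replicate number as a block. The other 8 comparisons had 0 under every alternative run. As a block, the replicate number also called Lyve1 with Wy14,643 in wild-type liver (1.20, adjusted p = 0.0479). The labels do not say what same-numbered arrays share.

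Counts over all probes moved too. For 3 mg/kg PFOA in wild-type liver they were 1473, against 262 within the smaller set and 441 with only the 2 groups, and 825 to 1943 with 1 array left out. For Wy14,643 in wild-type liver they were 1542, against 249 within the larger set, 3225 with array weights and 70 with only the 2 groups, and 797 to 2399 with 1 array left out. For the Wy14,643 responses they were 313, against 588 with the replicate block, 2 within the larger set, 612 for probes above the median mean, 205 with missing values included, 504 with trend and robust settings, 1055 with array weights, 43 with only the 4 groups, and 144 to 626 with 1 array left out. Among the smaller comparisons, the largest shifts came with array weights: 450 against 69 for 1 mg/kg PFOA in wild-type liver, 474 against 32 for null minus wild type with water, and 324 against 47 with methylcellulose. The counts of 5 endothelial and 5 Kupffer genes lower with Wy14,643, added after the data were seen, were both 1 to 6 with 1 array left out, 1 without methylcellulose replicate 2, and 0 within the larger set or with only the 2 groups fitted. Whether lost calls in fits of fewer arrays reflect fewer arrays alone was not tested.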
